A study of Homo sapiens with 12 samples.

Results

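The genes described here drive the cell cycle and DNA replication. They were chosen by symbol, as a list of 40 genes, and 39 of them were among the 10976 genes with a row in the deposited table, while *CCNE2* was not analysed here. For the comparison of phases the list was divided into 16 measured genes of G1 and S phase, out of 17 named, and 23 genes of G2 phase and mitosis, called G1/S and G2/M members below. Total RNA came from human cerebral organoids (COs), which are brain-like cultures. They were grown from the embryonic stem cell line H1 (WT) or from its clones KO#2 and KO#10. In these clones CRISPR-Cas9 had targeted *c-JUN*. By the protocol, COs were embedded in Matrigel and moved to another medium after neural induction, between day 12 and day 24. Age and this step cannot be told apart. Each line was sampled on day 12 and day 24 in 2 libraries, which gave 2 WT and 4 KO libraries per day and 12 in all. Each library pooled several COs of one line, and each KO line was 1 clone, so that clone and edit cannot be told apart. No source used here says whether the replicate numbers stand for separate cultures, and p-values therefore measure the spread between these libraries, which may be technical.

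The expression values were whole-number normalized scores, not counts. All 12 libraries had the same median of 17 and the same highest value of 5585, the column totals lay between 473637 and 483149, and depth is unknown. *JUN*, the edited gene, did not separate the labels in the direction of a loss. Its score on day 24 was 13 and 15 for WT, 39 and 39 for KO#2 and 29 and 32 for KO#10. On day 12 it was 4 and 8 for WT, 19 and 18 for KO#2 and 14 and 13 for KO#10. *JUN* was called higher in KO on day 24 (log2 fold change of 1.25 ± 0.17, adjusted p = 0.0184, limma). The edited part of the transcript is not given in the sources used here, so this score checks no label, and KO below means the libraries labelled KO. Neural progenitor markers were present in every group, with summed scores of the 9 genes between 588 and 867 in WT and between 1137 and 1586 in KO. In WT on day 24 the sums were 813 and 588, of which *VIM* gave 316 and 354, and *SOX1* was at 4 and 1. KO#10 replicate 1 of day 24 stood apart from the other 3 KO libraries of that day, with a summed endoderm score of 1333 against 33 to 106, a mesenchyme score of 2877 against 134 to 166, an epithelial score of 251 against 43 to 66 and a neuron score of 458 against 1460 to 2113. Results of day 24 are therefore also given without it.

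In a dividing cell, D and E cyclins open the way into S phase. Origins of replication are licensed by *ORC6*, *CDC6* and the *MCM2* to *MCM7* helicase, and DNA is copied with *PCNA* as the sliding clamp. Cyclins A and B with *CDK1* then drive entry into mitosis, where Aurora and Polo kinases, the kinetochore and the spindle checkpoint separate the chromosomes. In the developing brain these genes are expressed by neural progenitors and are switched off in neurons, which no longer divide. Many genes of G1 and S phase are targets of E2F factors. Many of G2 and mitosis carry CCAAT boxes and a CHR element, and the DREAM and MuvB complexes act through the CHR element.

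These elements were looked for in the promoters of the members. A RefSeq window (GRCh38.p14) from 250 bases before to 50 after a start was given for 33 members, in 44 windows. *CCND1*, *CCND2*, *MCM4*, *MCM5*, *AURKA* and *TPX2* had no window. Windows of 4 members are shown. *CCNE1* and *CDK1* were lower and *PCNA* and *MKI67* higher in KO on day 24, each with an adjusted p under 0.05 (limma). *MCM7*, which was also higher at that p, is not shown. Its windows held 1, 1 and 3 CCAAT boxes, 0, 2 and 3 matches to the E2F letters and no CHR letters. Capitals mark CCAAT, CHR letters and E2F letters on either strand. The CHR letters searched were TTTGAA as first form, TTCGAA as the next, CTTGAA as another and TTTAAA as the last. The E2F letters were TTCCCGC as first form, TTGGCGC as the next, TTCGCGC as another and TTGCCGC as the last.
*CCNE1* (chr19:29811741-29812040, plus strand): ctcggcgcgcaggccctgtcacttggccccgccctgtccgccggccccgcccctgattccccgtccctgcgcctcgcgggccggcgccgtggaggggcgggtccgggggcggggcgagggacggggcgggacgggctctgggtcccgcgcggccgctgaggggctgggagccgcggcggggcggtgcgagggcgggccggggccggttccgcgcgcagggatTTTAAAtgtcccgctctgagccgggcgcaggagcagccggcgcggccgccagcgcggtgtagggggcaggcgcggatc
*PCNA* (chr20:5126573-5126872, minus strand): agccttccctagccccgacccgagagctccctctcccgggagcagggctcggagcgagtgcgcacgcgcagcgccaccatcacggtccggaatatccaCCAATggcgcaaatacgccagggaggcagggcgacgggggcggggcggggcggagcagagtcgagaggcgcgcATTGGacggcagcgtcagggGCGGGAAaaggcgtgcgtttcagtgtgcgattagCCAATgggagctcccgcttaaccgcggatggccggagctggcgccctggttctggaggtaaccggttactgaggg
*CDK1* (chr10:60778228-60778527, plus strand): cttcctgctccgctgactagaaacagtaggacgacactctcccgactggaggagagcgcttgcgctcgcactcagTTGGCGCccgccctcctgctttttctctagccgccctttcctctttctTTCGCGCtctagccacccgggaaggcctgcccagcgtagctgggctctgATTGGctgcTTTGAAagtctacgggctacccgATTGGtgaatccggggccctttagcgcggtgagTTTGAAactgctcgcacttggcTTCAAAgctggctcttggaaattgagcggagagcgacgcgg
*MKI67* (chr10:128126374-128126673, minus strand): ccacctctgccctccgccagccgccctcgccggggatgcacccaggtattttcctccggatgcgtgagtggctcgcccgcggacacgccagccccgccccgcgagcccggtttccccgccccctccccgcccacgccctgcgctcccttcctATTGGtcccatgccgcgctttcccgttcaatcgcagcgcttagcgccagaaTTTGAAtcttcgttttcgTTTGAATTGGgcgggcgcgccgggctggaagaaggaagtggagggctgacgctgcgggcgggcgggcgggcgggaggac
In the deposited table *CCNE1* (ENSG00000105173) is listed at chr19:29811991-29824312 on the plus strand, *PCNA* (ENSG00000132646) is listed at chr20:5114953-5126626 on the minus strand, *CDK1* (ENSG00000170312) is listed at chr10:60778331-60794852 on the plus strand and *MKI67* (ENSG00000148773) is listed at chr10:128096659-128126423 on the minus strand. The intervals of all 39 members overlap those of the same gene in GENCODE release 29 (GRCh38). *PCNA* had 2 windows. The one shown, at the start of the listed gene, held 3 CCAAT boxes and 1 match to the E2F letters, and the other held 2 CCAAT boxes and none of the E2F letters. Of 2 windows of *CDK1* that of the later start is shown, and it held 2 CCAAT boxes, 3 matches to the CHR letters and 2 to the E2F letters. The other, at the start of the listed gene, held 1 CCAAT box, 2 matches to the CHR letters and 2 to the E2F letters. In the *MKI67* window, 1 CHR match shared bases with a CCAAT box on the other strand. The *CCNE1* window held a single CHR match and no exact E2F letters.

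CHR letters stood in at least 1 window of 20 of 21 G2/M members (95.2%) and of 4 of 12 G1/S members (33.3%). Of the 8907 genes in the table with a window, 29.4% held them, and of all 27305 genes with a window, 36.7%. The order was the opposite for E2F letters, which were found in 10 of 12 G1/S members (83.3%), 8 of 21 G2/M members (38.1%) and 25.7% of the genes in the table (15.3% of all genes with a window). CCAAT did not separate the phases, at 75.0% of G1/S and 71.4% of G2/M members, against 44.9% in the table and 39.7% over all. Genes with several starts had several windows and therefore more chances of a match. A match is a run of letters and was not tested as a binding site.

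**Figure D1:**
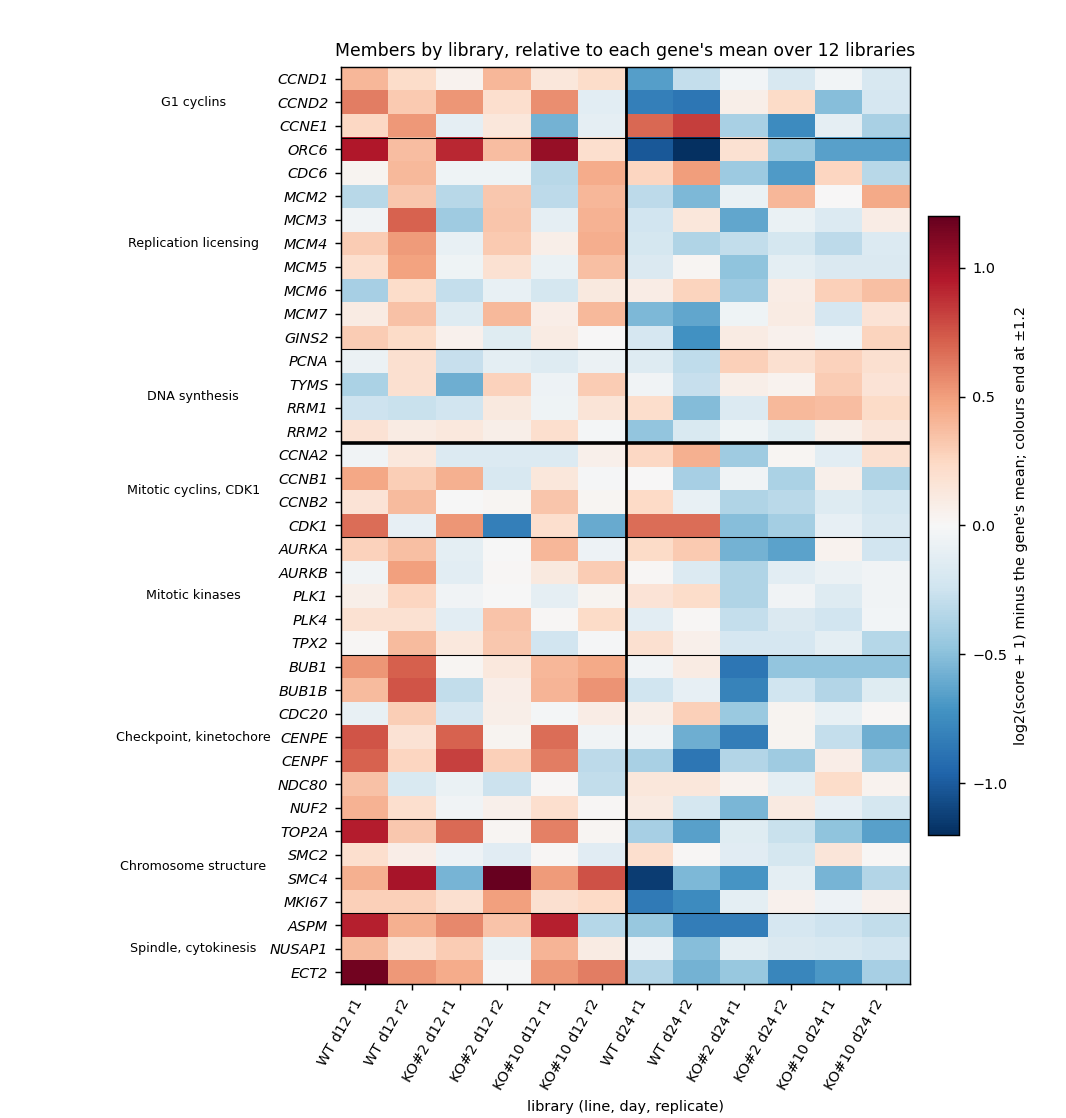
Each row is a member and each column a library (line, day, replicate). Colour gives log2 (score + 1) relative to the mean of that gene over the 12 libraries, with G1/S members above the thick line and day 24 to the right of the vertical line. ORC6, TOP2A and ECT2 were higher in every day 12 library than in any of day 24, and CCNE1 and CDK1 were high in both WT libraries of day 24.

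Members were compared between KO and WT within each day. A gene was called when the adjusted p of limma was under 0.05 and the change was at least 2-fold (log2 of 1), on log2 (score + 1). On day 24, *CCNE1* was called lower in KO and no other member was called, which made 1 of 39, while 8.01% of the 9289 genes tested were called. Another 4 members had an adjusted p under 0.05 with a change under 2-fold. Of these, *MKI67*, *MCM7* and *PCNA* were higher in KO, and *CDK1* was lower. With *CCNE1* this was 5 of 39, and 14.6% of all genes tested passed that p at any fold. Without KO#10 replicate 1, 2 members were called (*CCNE1* and *CDK1*, both lower) beside 14.7% of all genes, and 10 members passed that p beside 31.7%. The 5 added were *AURKA*, *BUB1* and *CDC6*, lower, and *CCND2* and *MCM2*, higher.

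Cyclin E1 (*CCNE1*) binds *CDK2* at the start of S phase. On day 24 its score was 18 and 20 for WT, 8 and 6 for KO#2 and 10 and 8 for KO#10, so that no KO library reached WT. The log2 fold change was -1.17 ± 0.21 (SE; adjusted p = 0.0235, limma). On day 12 the score was 13 and 16 for WT, 10 and 12 for KO#2 and 7 and 10 for KO#10, again without overlap but with a difference that did not pass the test (log2 fold change of -0.54 ± 0.23, adjusted p = 0.431, and 0.177 with the replicate number as a block, limma). The scores were near the limit of 10 set for testing. The day 24 call was lost when any library other than KO#10 replicate 1 was left out. The adjusted p was then 0.0929 without WT replicate 1, 0.253 without WT replicate 2, 0.0537 or 0.0665 without replicate 1 or 2 of KO#2, and 0.0736 without replicate 2 of KO#10, and the log2 fold change stayed between -1.24 and -1.05. In these smaller fits few genes of any kind were called, from 0.0224% (without WT replicate 2) to 2.88% (without KO#2 replicate 1), and where WT was left with 1 library it was assumed to vary like KO. With a pseudocount of 10 in place of 1 the log2 fold change was -0.69, under the 2-fold limit.

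The D cyclins, which activate *CDK4* and *CDK6* earlier in G1, lay on the other side. *CCND2* was at 65 and 63 for WT on day 24, 121 and 136 for KO#2 and 81 and 100 for KO#10. All KO libraries were above WT, but the difference did not pass the test over all KO libraries (log2 fold change of 0.74 ± 0.21, adjusted p = 0.0567, limma). *CCND1* was at 36 and 47 in WT and between 50 and 56 in KO, with an adjusted p of 0.13 (limma).

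The licensing genes ranged from -0.68 to 0.75 in log2 fold change on day 24. *ORC6*, the smallest subunit of the origin recognition complex, was at 30 and 25 for WT on day 24, 70 and 45 for KO#2 and 39 and 39 for KO#10 (log2 fold change of 0.75 ± 0.25, adjusted p = 0.0801, limma). *MCM7*, a subunit of the replicative helicase, was at 87 and 82 for WT, 122 and 136 for KO#2 and 110 and 142 for KO#10. All 4 KO libraries exceeded WT, and the log2 fold change of 0.58 ± 0.14 had an adjusted p of 0.0408 (limma). *MCM2* and *GINS2* were also above WT in every KO library, with log2 fold changes of 0.62 and 0.56 and adjusted p of 0.0679 and 0.0726 (limma). *MCM3*, *MCM4*, *MCM5* and *MCM6* overlapped between the groups, with log2 fold changes between -0.16 and 0.04. The helicase subunits thus ranged from -0.16 to 0.62 on this scale. *CDC6*, the loader of that helicase, had the lowest value of the licensing genes (log2 fold change of -0.68 ± 0.26, adjusted p = 0.107, limma).

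All 4 genes of DNA synthesis had positive fold changes on day 24, and 1 had an adjusted p under 0.05. *PCNA* was at 162 and 146 for WT on day 24, 220 and 206 for KO#2 and 219 and 206 for KO#10. The WT and KO libraries were separated by more than the spread within either (log2 fold change of 0.46 ± 0.11, adjusted p = 0.0407, limma). *TYMS*, which makes thymidylate, and *RRM2*, a ribonucleotide reductase subunit, were above WT in every KO library, with adjusted p of 0.152 and 0.148 (limma). *RRM1* overlapped, since WT was at 94 and 56.

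**Figure D2:**
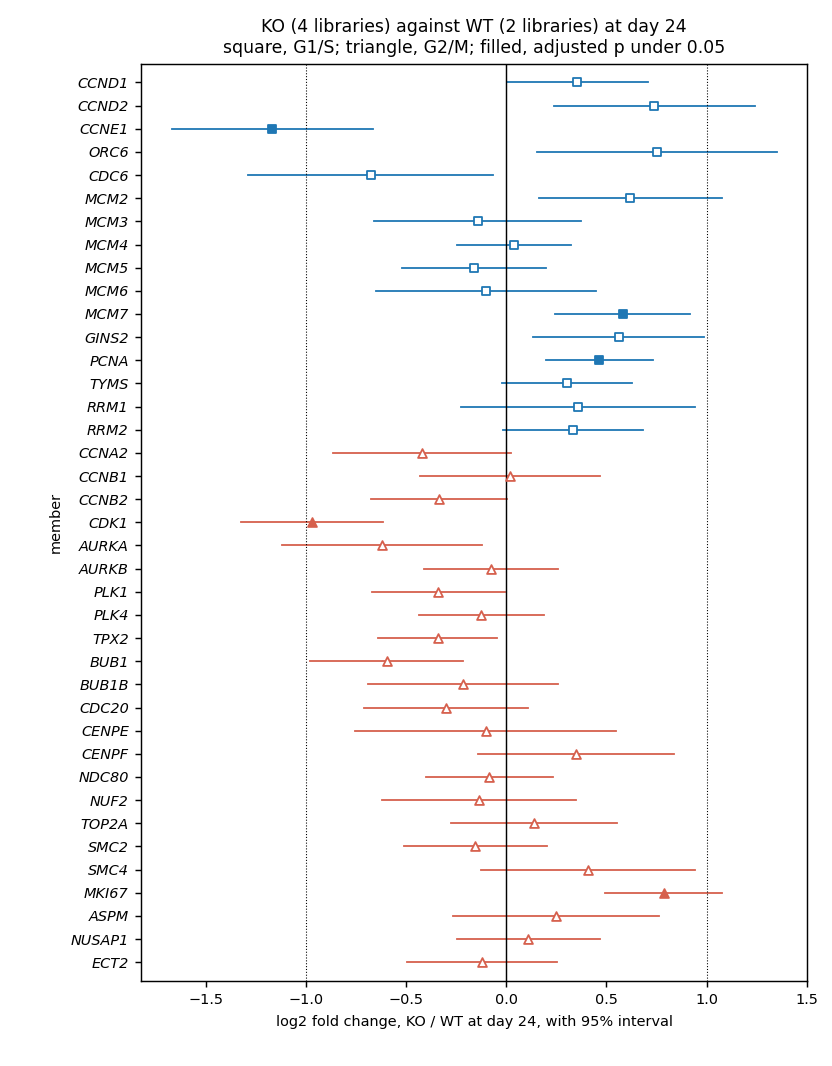
The log2 fold change of KO against WT on day 24 is shown for the 39 members with its 95% interval from limma. Squares are G1/S and triangles G2/M members, and filled marks have an adjusted p under 0.05. CCNE1 is the only filled mark beyond the dotted 2-fold line, CDK1 lies just inside it at -0.97, and MKI67 is the only filled G2/M mark above 0.

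*CDK1*, the kinase that drives mitosis, differed most among the G2/M members. On day 24 it was at 212 in both WT libraries, 93 and 100 for KO#2 and 124 and 116 for KO#10 (log2 fold change of -0.97 ± 0.15, adjusted p = 0.0196, limma). The equal WT values fell on a step of the deposited scale that 9 genes shared in each of these libraries, with the nearest steps at 211 and 218. On day 12 the same gene was at 212 and 124 for WT, 193 and 75 for KO#2 and 153 and 87 for KO#10. There the replicates of every line were far apart, with replicate 2 the lower. WT and KO overlapped over all libraries, but both KO libraries were below WT within each replicate number (log2 fold change of -0.46, adjusted p = 0.735, and 0.147 with the replicate number as a block, limma). Without KO#10 replicate 1 of day 24, *CDK1* was called (log2 fold change of -1.04, adjusted p = 0.00623, limma). *CCNA2* and *CCNB2*, cyclins that pair with *CDK1*, were below WT in every KO library of day 24, with log2 fold changes of -0.42 and -0.34 and adjusted p of 0.148 and 0.134 (limma). *CCNB1* overlapped, at 93 and 70 in WT and between 71 and 97 in KO.

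All 5 genes of the group of mitotic and centriole kinases, which also holds *TPX2*, had negative fold changes on day 24, and none passed the test. *AURKA*, the kinase of the spindle poles, was at 32 and 34 for WT, 18 and 17 for KO#2 and 28 and 23 for KO#10 (log2 fold change of -0.62 ± 0.21, adjusted p = 0.0823, limma). On day 12 it was at 33 and 35 for WT, 25 and 27 for KO#2 and 36 and 26 for KO#10. *PLK1* and *TPX2*, the activator of *AURKA*, were also below WT in every KO library, each with a log2 fold change of -0.34 and adjusted p of 0.125 and 0.0979 (limma). *AURKB* and *PLK4* overlapped between the groups.

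Of 7 checkpoint and kinetochore genes, 6 had negative fold changes. *BUB1*, a checkpoint kinase at the kinetochore, was at 38 and 42 for WT on day 24, 21 and 28 for KO#2 and 28 and 28 for KO#10. Its log2 fold change of -0.60 ± 0.16 had an adjusted p of 0.0505 (limma). On day 12 it was at 57 and 65 for WT, 40 and 43 for KO#2 and 52 and 54 for KO#10. *CDC20*, which activates the anaphase-promoting complex, was below WT in every KO library with an adjusted p of 0.241 (limma). *BUB1B*, *CENPE*, *NDC80* and *NUF2* overlapped. *CENPF*, at 38 and 27 for WT, 39 and 37 for KO#2 and 53 and 37 for KO#10, had the only positive fold change of this group (0.35 ± 0.21 on the log2 scale, adjusted p = 0.256, limma).

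*MKI67*, the widely used marker of dividing cells that coats mitotic chromosomes, went the other way from *CDK1*. On day 24 it was at 14 and 15 for WT, 24 and 27 for KO#2 and 25 and 27 for KO#10, with no overlap (log2 fold change of 0.79 ± 0.12, adjusted p = 0.0205, limma). On day 12 it was at 32 and 32 for WT, 30 and 37 for KO#2 and 30 and 31 for KO#10, and the groups overlapped. *TOP2A*, the topoisomerase of mitotic chromosomes, was at 124 and 104 for WT on day 24, 148 and 136 for KO#2 and 117 and 104 for KO#10 (log2 fold change of 0.14 ± 0.18, adjusted p = 0.582, limma). The condensin subunits *SMC2* and *SMC4* overlapped as well. Among the spindle genes, *ASPM*, a spindle pole protein needed for brain size, was at 25 and 19 for WT, 19 and 30 for KO#2 and 29 and 28 for KO#10, with an adjusted p of 0.429 (limma). *MKI67* and *CDK1*, both often read as signs of proliferation, thus gave opposite orders of WT and KO on the same day.

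**Figure D3:**
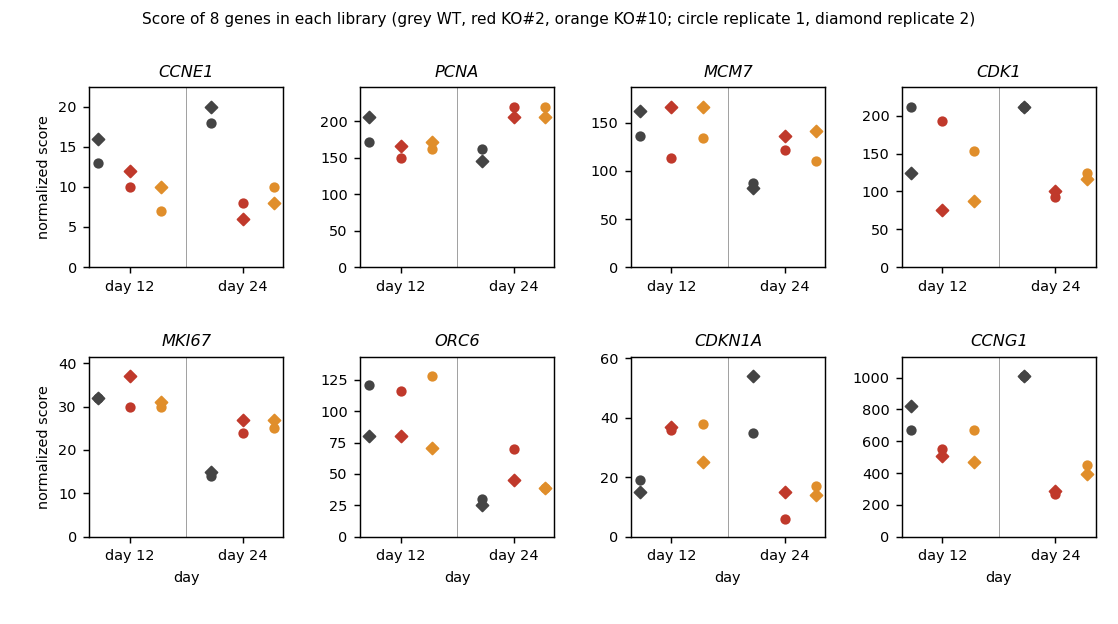
The normalized score of 6 members and of the cell cycle regulator genes CDKN1A and CCNG1 is plotted for each library, with grey for WT, red for KO#2, orange for KO#10, circles for replicate 1 and diamonds for replicate 2. On day 24 CCNE1, CDK1, CDKN1A and CCNG1 are lower and PCNA, MCM7, MKI67 and ORC6 higher in every KO library, while CDK1 and ORC6 split by replicate number on day 12.

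On day 24 all KO libraries lay above both WT libraries for 9 of 16 G1/S members and below for 1. For G2/M members this held for 1 and 8 of 23. Over all genes tested, 22.2% lay above and 21.8% below in this way, so that the members as a whole (10 above and 9 below of 39) were near the background, while their division by phase was uneven. Without KO#10 replicate 1 the counts were 9 above and 2 below for G1/S and 1 and 9 for G2/M, beside 29.3% and 29% of all genes. The median log2 fold change was 0.34 over the G1/S members, -0.12 over the G2/M members and 0.01 over all genes tested.

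The phases were also compared within libraries. For each library the median of log2 (score + 1), taken relative to the mean of each gene over all libraries, was computed for G1/S and for G2/M members, and the first subtracted from the second. On day 24 this difference was 0.208 and 0.198 for WT, -0.293 and -0.179 for KO#2 and -0.0835 and -0.34 for KO#10. It was above 0 in both WT libraries and below 0 in all 4 KO libraries, and the means differed by -0.427, or -0.474 without KO#10 replicate 1. On day 12 it was 0.24 and -0.0236 for WT, 0.0946 and -0.165 for KO#2 and 0.258 and -0.184 for KO#10. There the value followed the replicate number in all 3 lines. The means of replicate 2 and replicate 1 differed by -0.321, while KO and WT differed by -0.107. The SD between replicates of a line and day was 0.185, and no test was made on this median because its genes were chosen with earlier results known.

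The difference on day 24 did not extend to wider lists. For 45 other genes of replication and the G1/S transition and 46 other genes of G2 and mitosis, the same measure differed between KO and WT by -0.00305 on day 24 and by 0.0798 on day 12. Of the other G1/S genes, 29 of 44 tested had negative fold changes on day 24 and none was called, against 11 of 16 positive among the G1/S members. Their median was -0.10. Of the 46 other G2/M genes, 28 had negative fold changes with a median of -0.16, and 1 was called.

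**Figure D4:**
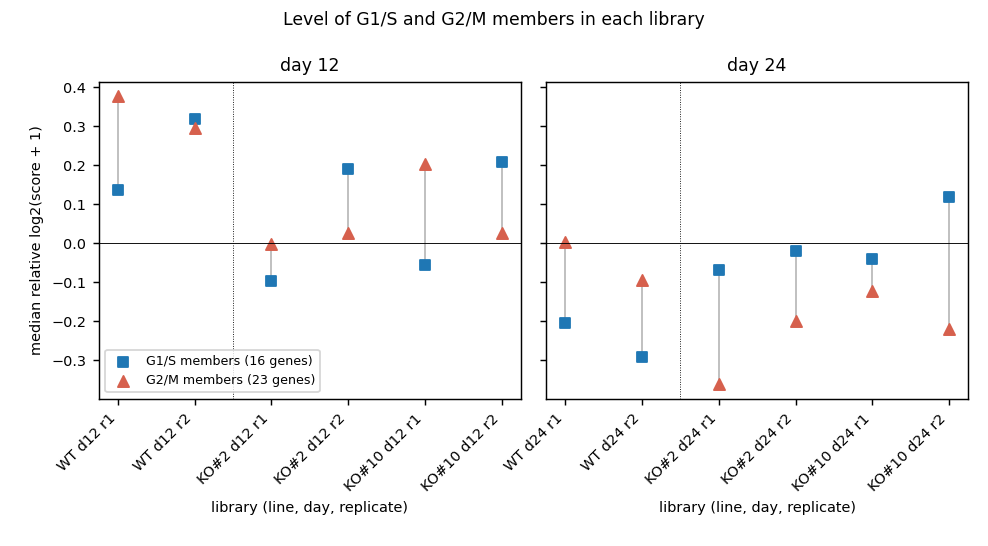
For each library the square gives the median over 16 G1/S members and the triangle the median over 23 G2/M members of log2 (score + 1) relative to the mean of each gene. The dotted line parts WT from KO. On day 24 the triangle lies above the square in both WT libraries and below it in all 4 KO libraries, and on day 12 the order follows the replicate number.

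On day 12 no member was called between KO and WT, while 0.09% of 8885 genes tested were (8 genes). At an unadjusted p under 0.05 there was 1 member, *CCNE1*, which was lower, and 451 genes over all were lower (5.08%, limma). The fold changes were small but mostly of one sign. They were negative for 36 of 39 members and for all 23 G2/M members, with a median of -0.19 on the log2 scale against -0.00 over all genes tested. Markers of several cell types moved with these groups. The summed score of 9 pluripotency genes was 960 to 1157 in WT and 563 to 641 in KO on day 12. Of these, 3 of 8 tested were called lower, with *POU5F1* at a log2 fold change of -2.76 and *TDGF1* at -4.01 (adjusted p of 0.000602 and 0.00641, limma). Neural progenitor sums were 662 to 867 in WT and 1137 to 1461 in KO, and epithelial sums 341 to 361 and 193 to 306. Sums of neuron, endoderm and mesenchyme genes overlapped. The part of these cell types in the shift of the members was not tested. In 5 members every KO library was below both WT libraries (*CCNE1*, *GINS2*, *PLK1*, *BUB1* and *SMC2*), and in 1, *RRM1*, above. Over all genes 8.34% were below and 8.23% above. With the replicate number as a block, which pairs the libraries of this day, 71 genes and none of the members were called.

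The day 12 replicates differed from each other in the same genes in every line. Replicate 2 was above replicate 1 in all 3 lines for 16 members and below for 13, while over all genes tested this held for 23.5% and 21.6%. The 6 MCM genes were all among the 16. *MCM3*, for example, was at 90 and 152 for WT, 69 and 117 for KO#2 and 86 and 124 for KO#10. *CDK1*, *TOP2A*, *ORC6*, *CENPE*, *CENPF* and *ASPM* were among the 13. On day 24 the counts were 9 and 7, with 13.8% and 14.4% over all. Across the 39 members, the day 12 difference of replicates correlated with the GC content of the longest coding transcript at Pearson r = 0.546, against 0.123 over 8637 genes. This is a description across genes that share their libraries, and what the replicate number stands for is not given.

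From day 12 to day 24 in WT, 30 of 39 members had negative fold changes. The test called 8 of 39, all lower, while 15.1% of 9952 genes were called and 7.88% called lower. The called members were *CCND2*, *ORC6*, *CENPF*, *TOP2A*, *SMC4*, *MKI67*, *ASPM* and *ECT2*. Of these 8, 6 belong to G2/M and 5 to the chromosome and spindle groups, which have 7 measured genes. At any fold, 15 members were lower at an adjusted p under 0.05, where 29.5% of all genes passed in either direction. The median log2 fold change was -0.42 for G1/S and -0.36 for G2/M members, against 0.02 over all genes. Markers of some other cell types rose in the same WT libraries. The summed endoderm score went from 7 to 27 on day 12 to 7118 to 7321 on day 24. *AFP* alone gave 5585 of it, the highest value of the scale, in both WT libraries of day 24. The mesenchyme score went from 32 to 49 on day 12 to 2084 to 2473 on day 24. Of the genes tested, 8 of 8 endoderm, 6 of 6 mesenchyme and 6 of 11 neuron genes were called higher. Neural progenitor markers mostly fell, with negative fold changes in 7 of 9 genes, a median of -0.91 on the log2 scale and 1 called lower. Of 9 pluripotency genes, 7 had negative fold changes, with a median of -0.35, and 1 was called lower. The part of these cell types in the fall of the members was not tested.

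Of the called genes, *ORC6* fell furthest in WT, from 121 and 80 on day 12 to 30 and 25 on day 24 (log2 fold change of -1.81 ± 0.33, adjusted p = 0.00275, limma). *CCND2* fell from 177 and 144 to 65 and 63, and *MKI67* from 32 and 32 to 14 and 15, with log2 fold changes of -1.31 and -1.09 and adjusted p of 0.00443 and 0.000652 (limma). These 3 were called whichever library was left out, and *MKI67* was under the 2-fold limit with a pseudocount of 10 (-0.78). *ECT2*, which starts the cleavage furrow, fell from 164 and 105 to 57 and 49 (log2 fold change of -1.30 ± 0.25, adjusted p = 0.00335, limma). Without WT replicate 1 of day 12 it was -0.98, under the 2-fold limit.

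The other 4 calls were lost without single libraries. *TOP2A* went from 315 and 205 to 124 and 104, *CENPF* from 82 and 60 to 38 and 27, and *ASPM* from 67 and 47 to 25 and 19. Their log2 fold changes were -1.16, -1.11 and -1.33, with adjusted p of 0.00986, 0.0246 and 0.0153 (limma). Without WT replicate 1 of day 12 the adjusted p rose to 0.0977 for *TOP2A*, 0.161 for *CENPF* and 0.119 for *ASPM*. Without WT replicate 2 of day 24 it was 0.0742, 0.163 and 0.105. *SMC4* went from 250 and 370 to 84 and 128 (log2 fold change of -1.54 ± 0.45, adjusted p = 0.0244, limma) and lost its call without any 1 of the 4 WT libraries, with adjusted p of 0.0575 and 0.127 without replicate 1 or 2 of day 12, and 0.141 and 0.0525 without replicate 1 or 2 of day 24. The number of members called was 3 of 39 without WT replicate 1 of day 12 and 4 without WT replicate 2 of day 24, and the share of all genes called was also lower there, at 8.16% and 9.3%.

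In KO, *ORC6* alone was called lower from day 12 to day 24, 1 of 39 members, while 11.5% of all genes were called. It went from 116 and 80 in KO#2 and 128 and 71 in KO#10 to 70 and 45 and to 39 and 39 (log2 fold change of -1.02 ± 0.23, adjusted p = 0.00517, limma). This fold lay at the limit and was under it without KO#2 replicate 1 (-0.93) or KO#10 replicate 1 (-0.88) of day 12. It was also just under the limit without KO#2 replicate 2 of day 24, and at -0.93 without either KO#10 library of that day. *ECT2*, from 100, 72, 106 and 112 to 53, 42, 45 and 55, was just short of the limit (log2 fold change of -0.97 ± 0.17, adjusted p = 0.00127, limma). The count of members called was 0 without replicate 1 of KO#10 on either day and 2 without KO#2 replicate 2 or KO#10 replicate 2 of day 12 or KO#2 replicate 1 of day 24, while 10.2% to 12.2% of all genes were called in the fits without 1 library. The other genes called in WT had these KO scores on day 12. *CCND2* was at 167 and 133 for KO#2 and at 171 and 106 for KO#10. *CENPF* was at 89 and 61 for KO#2 and at 77 and 40 for KO#10. *TOP2A*, at 262 and 166 for KO#2 and 250 and 166 for KO#10, was above its KO scores of day 24 in every library, while *ASPM*, at 52 and 44 for KO#2 and 67 and 27 for KO#10, overlapped with them. *SMC4* went from 126 and 452 for KO#2 and 266 and 318 for KO#10 on day 12 to 114 and 172 and to 126 and 146 on day 24. At any fold, 12 members were lower and 1 higher at an adjusted p under 0.05, where 37.9% of all genes passed. The 1 higher was *PCNA*, from 149, 166, 162 and 171 (171 and 206 for WT) to 220, 206, 219 and 206 (log2 fold change of 0.39 ± 0.10, adjusted p = 0.0113, limma).

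**Figure D5:**
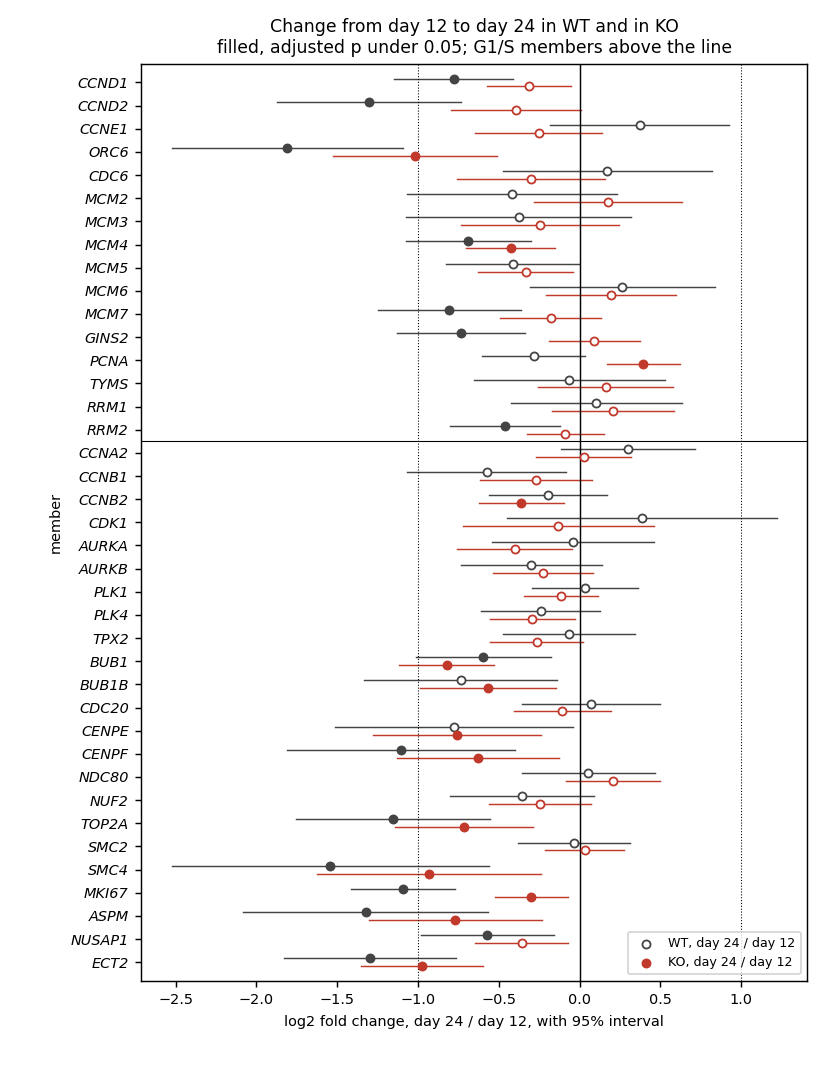
The log2 fold change from day 12 to day 24 is shown for each member in WT (grey) and KO (red) with 95% intervals from limma, filled where the adjusted p was under 0.05. Most marks lie below 0. In WT 8 filled marks pass the 2-fold line, and in KO only ORC6 does, while PCNA is filled above 0 in KO.

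Whether the change over days differed between the genotypes was tested by their interaction. No member was called, while 1.31% of genes were. At an unadjusted p under 0.05 there were 6 members, all with a positive difference (KO minus WT), where 11.3% of all genes were higher in this way (limma). *MKI67* had the lowest adjusted p, at a difference of 0.79 ± 0.18 on the log2 scale (adjusted p = 0.0537, limma). *PCNA* followed with 0.68 (adjusted p = 0.0717) and *GINS2* with 0.83 (adjusted p = 0.0758, limma). Without WT replicate 1 of day 24, *GINS2* was called (1.09, adjusted p = 0.0398), and without KO#10 replicate 1 of day 24, *CCND2* was (1.04, adjusted p = 0.0383, limma). With the replicate number as a block these differences were the same. The adjusted p was then 0.0333 for *MKI67*, 0.0481 for *PCNA* and 0.0553 for *GINS2* (limma). *MKI67* and *PCNA* thus passed that p in the blocked fit, under the 2-fold limit, where 3.17% of all genes were called. No member was called in either fit with all libraries, and without the block none had an adjusted p under 0.05.

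The clones were set against WT on day 24 in one fit with 3 groups. In KO#2, 3 of 39 members were called (8.99% of all genes), with *CCNE1* and *CDK1* lower and *ORC6* higher. Their log2 fold changes were -1.33, -1.13 and 1.01, with adjusted p of 0.0353, 0.0301 and 0.049 (limma). In KO#10 none was called (0.28% of all genes), and the log2 fold changes of the same genes were -1.01, -0.82 and 0.49. At an unadjusted p under 0.05 there were 8 higher and 3 lower members in KO#10, against 13.1% and 11.1% of all genes (limma). Between the clones no gene was called (0 of 9289, which is 0%, with 224 higher and 255 lower in KO#2 at an unadjusted p under 0.05, limma). Between KO#2 and KO#10 the 95% interval of the log2 difference was -0.88 to 0.22 for *CCNE1*, -0.64 to 0.02 for *CDK1* and -0.07 to 1.10 for *ORC6*. Differences between clones of these sizes could therefore not be told from 0. In KO#2, leaving out any WT or KO#2 library left that line with 1 library, assumed to vary like the others, and at most 2 genes of all tested were then called. None of the 3 members was among them. The log2 fold change stayed between -1.51 and -1.15 for *CCNE1*, between -1.18 and -1.08 for *CDK1* and between 0.70 and 1.32 for *ORC6*. *ORC6* was also lost without either KO#10 library (0.083 and 0.0832).

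Among 21 measured regulators of the cell cycle outside the list, 18 were tested on day 24, and 2 were called lower and 1 higher, where 8.01% of all genes were called in either direction. *CDKN1A*, the p21 inhibitor of cyclin-dependent kinases, was at 35 and 54 for WT, 6 and 15 for KO#2 and 17 and 14 for KO#10 (log2 fold change of -1.75 ± 0.39, adjusted p = 0.0345, limma). On day 12 the order was the opposite, with 19 and 15 for WT, 36 and 37 for KO#2 and 38 and 25 for KO#10. That difference did not pass (log2 fold change of 0.95 ± 0.20, adjusted p = 0.143, and 0.0445 with the replicate block at the same fold, limma). The difference between the days was called, at -2.70 ± 0.47 on the log2 scale (adjusted p = 0.0257, limma). The day 24 call was lost without either WT library (adjusted p = 0.093 and 0.29) or without replicate 2 of KO#2 or KO#10 (0.0859 and 0.0835), in the fits where few genes of any kind were called. The interaction was lost without either WT library of day 12 (0.11 and 0.0739), WT replicate 2 of day 24 (0.162), either KO#2 library of day 12 (0.0572 and 0.0564) or KO#10 replicate 1 of day 12 (0.0529), where 0.111% to 0.555% of all genes were called, against 1.31% with all libraries.

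*CCNG1*, cyclin G1, is a p53 target. On day 24 it was at 1009 in both WT libraries, 266 and 290 for KO#2 and 452 and 396 for KO#10. The log2 fold change was -1.55 ± 0.23 (adjusted p = 0.0196, limma). In both WT libraries *CCNG1* fell on a step of the deposited scale that 4 genes shared, with the nearest steps at 1008 and 1200. Its call was lost without either WT library (0.0746 and 0.231) or without replicate 2 of KO#2 or KO#10 (0.0665 and 0.068). *CDKN2D*, an inhibitor of *CDK4* and *CDK6*, was at 5 and 4 for WT, 13 and 17 for KO#2 and 9 and 11 for KO#10 (log2 fold change of 1.27 ± 0.27, adjusted p = 0.0315, limma). It was lost without either WT library (0.0952 and 0.267), either KO#2 library (0.0727 and 0.0878) or KO#10 replicate 2 (0.0819). *CDKN1B* (p27) and *CDKN1C* (p57) were not called on day 24, with log2 fold changes of 0.25 and -0.38 and adjusted p of 0.341 and 0.065 (limma). *CDKN1C* lay below WT in every KO library of day 24 and above WT in every KO library of day 12, as *CDKN1A* did. On day 12 it was at 8 and 14 for WT, 19 and 16 for KO#2 and 20 and 21 for KO#10 (log2 fold change of 0.78 ± 0.22, adjusted p = 0.233, limma). The spindle checkpoint kinase *TTK* was the 1 called gene of the other G2/M list. It was at 79 and 81 for WT, 35 and 42 for KO#2 and 42 and 39 for KO#10, and its fold lay at the limit, with a 95% interval of -1.31 to -0.70 on the log2 scale (adjusted p = 0.0181, limma). It was lost without WT replicate 1 or 2 (0.0624 and 0.231), KO#2 replicate 2 (0.0665) or KO#10 replicate 2 (0.068), and its fold was under the limit without KO#2 replicate 1 (-0.95). These losses of *CCNG1*, *CDKN2D* and *TTK* fell in the same smaller fits, which called at most 2.88% of all genes.

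Markers of other cell types moved with the same groups on day 24. The summed score of 9 pluripotency genes was 509 to 969 in WT and 58 to 88 in KO, that of 9 endoderm genes 7118 to 7321 and 33 to 1333, that of 7 epithelial genes 678 to 909 and 43 to 251, and that of 6 measured mesenchyme genes 2084 to 2473 and 134 to 2877. *AFP*, at the highest value of the scale, gave 5585 of the endoderm sum in each WT library, and it gave 902 in KO#10 replicate 1. The summed score of 11 measured neuron genes was 198 to 361 in WT and 458 to 2113 in KO. The highest KO score for endoderm, epithelium and mesenchyme and the lowest for neurons were those of KO#10 replicate 1. No gene of these lists was at 0 throughout a group of day 24. Among the tested genes of these lists, 8 of 8 pluripotency, 7 of 7 epithelial, 3 of 8 endoderm and 1 of 6 mesenchyme genes were called lower in KO, and 4 of 11 neuron and 3 of 9 neural progenitor genes called higher, where 8.01% of all genes were called. In bulk RNA, fewer dividing cells and less RNA of a gene per cell cannot be told apart. The part of these cell types in the differences of the members was not tested.

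The change over days and the KO difference also moved with transcript length. Over the 39 members, the log2 fold change correlated with the log2 of transcript length at r = -0.482 for WT over days, -0.422 for KO over days and 0.277 for KO against WT on day 24. Over all genes with a length the values were -0.319, -0.173 and 0.247. These are descriptions across genes of the same libraries. The part of transcript length in the results was not tested. Of the 39 members, 22 overlap another annotated gene, 11 of them on the same strand, and how the counting treated strand is not given.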

How the data were processed

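Total RNA of human COs (lines H1, KO#2 and KO#10, days 12 and 24, 12 libraries) was sequenced after rRNA removal with a strand-specific kit. The authors deposited whole-number normalized scores per gene. The submitters' processing notes name bcl2fastq, Bowtie2 and RSEM and the build mm10, but the gene identifiers are human, and the notes give no versions. The normalization is not given in the sources used here. The scores are not counts, so that depth and counting error are unknown. The number of libraries limits the precision.

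The members, the gene lists, the designs and the rule for named genes were chosen with earlier results of these data known. Values by library are given for members called in any comparison, for the member with the largest change on day 24 in each role group and, for that day, for called genes of the other lists. *MCM7*, *MCM3* and the members shown by promoter were added after their values were seen. Scores were analysed as log2 (score + 1) with limma 3.58.1 (R 4.3.3, eBayes with trend) for genes that reached a score of 10 in 2 or more libraries of the fit. P-values were adjusted by Benjamini-Hochberg over all genes tested. KO was compared with WT within a day, changes over days and their interaction in a fit of all 12 libraries in 4 groups, and clones in the day 24 libraries. The fit was tested on simulated data. A fold change on this scale understates the change of low genes. Phase levels and motif shares had no test. Summaries were computed in Python 3.11.15 (pandas 2.3.3) and plotted with matplotlib 3.10.9. Alternatives were another pseudocount, no filter, no trend, the replicate number as a block, separate fits, leaving out each library and, added after the values were seen, centring of libraries and, for phase levels, leaving out KO#10 replicate 1 of day 24.

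Replicate numbers come from the labels. On day 12, libraries with the same number deviated together from their group means, with correlations across genes of 0.459 for WT with KO#2, 0.428 for WT with KO#10 and 0.598 between the clones. The numbers thus pair the libraries of that day. Reported values come from the fits without a block, and the fit with the replicate number as a block is an alternative. On day 24 the correlations were 0.212, -0.106 and 0.346, and no pairing was assumed.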

Additional observations from a re-analysis of the deposited data

Results flagged for a closer look

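In 94 sets of 4 KO libraries of a day (members and other named genes), the gap of the highest or lowest library to its nearest neighbour was compared with Dixon's limit for 4 samples. Chance alone passes about 1 in 20 sets, which is 5%, and the sets listed below are close to that share. The scores are whole numbers with ties, and the libraries of a set come from KO#2 and KO#10, so the limit is only a guide. On day 12, *CCNA2* was at 41 in KO#10 replicate 2 against 35 in the other 3 KO libraries, *CCNB2* at 62 in KO#10 replicate 1 against 49 to 50, and *MKI67* at 37 in KO#2 replicate 2 against 30 to 31. Also on day 12, *CDKN1A* was at 25 in KO#10 replicate 2 against 36 to 38. On day 24, *BUB1* was at 21 in KO#2 replicate 1 against 28 in each of the others, and *CENPF* at 53 in KO#10 replicate 1 against 37 to 39.

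*CDKN1A* also had different KO effects on the 2 days, with a difference of -2.70 on the log2 scale (adjusted p = 0.0257, limma). All 4 KO libraries were above both WT libraries on day 12 and below both on day 24, an order that *CDKN1C* shared without being called.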

How the results depend on the processing

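With a pseudocount of 10, the number of members called was 0 for KO against WT on day 24, 0 for KO over days and 1 for KO#2 against WT, while 3.74%, 4.3% and 5.22% of all genes were called. Fitting WT libraries alone gave 5 members called over days beside 11.5% of all genes. The KO minus WT phase difference was 0.0798 on day 12 and -0.00305 on day 24 with the lists of other genes. The cause of these shifts was not tested, beyond the larger pseudocount shrinking folds by construction and the smaller fit having fewer samples. Leaving out 1 library gave 0 to 2 members called for KO against WT on day 24 (0.0224% to 14.7% of all genes), 3 to 8 for WT over days (8.16% to 15.9%), 0 to 2 for KO over days (10.2% to 12.2%), 0 to 1 for the interaction (0.111% to 9.26%) and 0 to 2 for KO#2 against WT (0% to 9.13%). These fits hold fewer samples by construction, and a lone library was assumed to vary like the other groups. No value of a named gene turned its direction under the alternatives run.

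With the replicate number as a block, the members called numbered 0 and 1 for KO against WT on day 12 and day 24, 8 for WT and 1 for KO over days, 0 for the interaction and 0 for KO#10, beside 0.799%, 7.12%, 15.7%, 11.7%, 3.17% and 0% of all genes. For KO#2 the number was 2 in place of 3 (5.61% of all genes), since *ORC6* had an adjusted p of 0.0501 (limma). On day 24 libraries of the same number deviated together less than on day 12. The correlations were 0.212 for WT with KO#2, -0.106 for WT with KO#10 and 0.346 between the clones. The scores carry no depth, so that low genes such as *CCNE1* and *CDKN2D* could not be given a counting error.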
